A study of Rattus norvegicus with 2 samples.

Results

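The genes followed here through the jejunal epithelium of the rat are 8 genes that carry fatty acids, carotenoids and retinol from the gut lumen into absorptive cells: Fabp1, Fabp2 and Rbp2, which encode cytosolic binding proteins, Cd36 and Scarb1, which encode membrane receptors, and Acsl5, Lrat and Bco1, which encode enzymes. They were chosen by symbol, and 7 of the 8 have a row among the 32883 genes of the count tables. Cd36 has no row under that symbol and was not analysed here. The 2 samples were single-cell libraries of proximal jejunum epithelium, freed with EDTA and dispase II, from adult male Sprague Dawley rats, an outbred laboratory strain, aged 6 to 8 weeks. No treatment or engineered allele is named for either animal, both were starved overnight before death, and they form 1 group and each comparison is between cell classes within the same 2 rats. Fed animals were not part of the series, so the levels describe a fasted gut.

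Dietary fat and retinyl esters are broken down in the lumen and taken up by enterocytes, the absorptive cells that arise in crypts and mature as they climb the villus. CD36 and SR-BI (Scarb1) sit in the brush border membrane, and SR-BI also takes part in carotenoid uptake. Inside the cell liver-type and intestinal fatty acid binding proteins (Fabp1, Fabp2) hold fatty acids, and the ligase Acsl5 couples them to coenzyme A for triglyceride synthesis. Bco1 cleaves beta-carotene into retinal, cellular retinol-binding protein II (Rbp2) carries retinal and retinol, and Lrat esterifies retinol for export in chylomicrons.

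Outside the enterocytes Fabp1 was high in tuft-like cells and Bco1 above background in CFTR high-expresser (CHE) cells. Fabp2 was above background in goblet-like cells, although not in them alone. For that reason the 250 bases before the transcription starts of these 3 genes are shown. The sequences are from RefSeq and its GRCr8 build, which is not the Rnor6 build behind the counts, and 7 of the 8 genes had an entry, Scarb1 being the one that did not. Capitals mark matches on either strand to 5 motifs of 6 letters, which were TATAAA for the TATA-binding protein, GTTAAT for HNF1, AGATAA for GATA factors, TGACCT for nuclear receptors and CAAAGT for HNF4 and which did not overlap each other in these 3 sequences. The windows are on the plus strand, at chr4:104749090-104749339 for Fabp1, chr2:213724379-213724628 for Fabp2 and chr19:62057890-62058139 for Bco1.
Fabp1: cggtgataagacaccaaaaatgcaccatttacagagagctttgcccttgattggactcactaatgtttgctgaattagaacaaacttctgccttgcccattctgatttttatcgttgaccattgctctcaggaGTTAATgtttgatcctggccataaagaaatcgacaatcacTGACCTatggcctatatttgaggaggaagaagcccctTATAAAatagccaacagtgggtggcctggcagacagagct
Fabp2: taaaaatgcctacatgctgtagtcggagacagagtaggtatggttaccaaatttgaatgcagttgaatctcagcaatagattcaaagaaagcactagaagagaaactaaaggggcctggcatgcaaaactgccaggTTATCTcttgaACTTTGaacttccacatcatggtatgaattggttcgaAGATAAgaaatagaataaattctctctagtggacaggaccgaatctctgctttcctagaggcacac
Bco1: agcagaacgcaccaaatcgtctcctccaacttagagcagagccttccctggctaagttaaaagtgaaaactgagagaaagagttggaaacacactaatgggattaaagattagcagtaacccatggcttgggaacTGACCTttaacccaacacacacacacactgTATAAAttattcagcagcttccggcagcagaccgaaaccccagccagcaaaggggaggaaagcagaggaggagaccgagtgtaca
In Fabp1 the GTTAAT letters lay 117 bases, TGACCT 77 bases and TATAAA 40 bases before the start. Fabp2 held AGATAA on the minus strand at 114 bases and on the plus strand at 66 bases, and CAAAGT on the minus strand at 103 bases. Bco1 held TGACCT at 115 bases and TATAAA at 85 bases. Among the 33469 rat promoters of the same table, 12.9% held TATAAA, 6.45% GTTAAT, 10.3% AGATAA, 14.1% TGACCT and 12.9% CAAAGT, so such matches are common and describe these letters only.

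Rat 1 gave 12033 barcodes with 99986348 UMIs (unique molecular identifiers, each counted as 1 captured transcript), and rat 2 gave 8252 barcodes with 66469907 UMIs. Cells were kept with over 200 and under 5800 genes, over 5000 UMIs and at most 40% of UMIs from mitochondrial (Mt-) genes. They numbered 5988 in rat 1 and 2230 in rat 2. Cells were clustered with the 8 genes and related pathway genes left out of the clustering, and clusters were named from marker genes, so differences from the study may come from rebuilt names. Enterocyte-like cells were ordered by a villus score, the UMIs of 25 brush border and villus genes per 10000, and cut within each rat into early, mid and mature groups of equal cell number, 1380 or 1381 cells each in rat 1 and 383 in rat 2. Class totals ran from 80538 UMIs (CHE cells, rat 1) to 19697630 UMIs (early enterocytes, rat 1). Levels are UMIs per 1000000 UMIs of a class in 1 rat (CPM), and since these 3' libraries count a transcript once whatever its length, no length scaling was applied. Intervals are 95% and cover counting error only, and p-values measure only the spread between the sums of 2 animals.

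The libraries stood apart before any uptake gene was compared. Among regional genes picked after their values were seen, the ileal bile acid carrier Fabp6 reached 1267 CPM in early enterocytes of rat 1 against 1.18 CPM in rat 2, and the calcium carrier S100g 89.9 CPM in mature enterocytes of rat 1 against 6381 CPM in rat 2. Position along the gut, rat and library cannot be told apart. Mature enterocytes of rat 2 had a median of 29.8% Mt- UMIs against 15.1% in rat 1, and the median villus score of early enterocytes was 198 against 51.4 per 10000. There were 1164 crypt-like cells in rat 1 and 36 in rat 2, after 80 of 116 in the latter were removed for having few UMIs of epithelial genes. Tuft-like cells numbered 15 and 128, CHE cells 8 and 79, enteroendocrine-like (EEC) cells 21 and 11 and goblet/Paneth-like cells 160 and 140. The libraries shared 28 barcode sequences. Leukocyte-like cells (52 and 252) served as a reference for free RNA, although in rat 1 their clusters also held epithelial markers at 5508 CPM, against 693 CPM in rat 2. The top cell held 21.6% and 20.6% of their Fabp1 UMIs, so the reference may lie above the level of free RNA. Erythroid cells had Fabp1 at 1312 and 441 CPM, against 1364 and 684 CPM in leukocyte-like cells.

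Enterocytes held by far the most UMIs of the 7 genes. Fabp1, which binds fatty acids and bile acids, stood at 7435 CPM in early, 48775 CPM in mid and 74202 CPM in mature enterocytes of rat 1, so that 7.42% of all UMIs of the mature cells came from this 1 gene. In rat 2 it stood at 15176, 32846 and 19902 CPM in the same groups, and the highest group was mid rather than mature. Fabp2 followed at 1017, 9526 and 13856 CPM in rat 1 and at 4303, 8493 and 8032 CPM in rat 2. Rbp2 was highest in the mid group of rat 1 and the early group of rat 2, with 10971, 23735 and 15189 CPM in rat 1 and 19280, 15771 and 7825 CPM in rat 2.

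The enzymes and the receptor gave far fewer UMIs. Acsl5 stood at 209, 941 and 1273 CPM from early to mature enterocytes of rat 1 and at 783, 983 and 698 CPM in rat 2. For Bco1 the values were 142, 291 and 302 CPM in rat 1 and 660, 654 and 187 CPM in rat 2, the early and mid groups of rat 2 lying above every group of rat 1. Scarb1 stood at 25.3, 111 and 178 CPM in rat 1 and at 170, 168 and 83.8 CPM in rat 2. Lrat was the lowest of the genes, at 3.30, 14.7 and 22.8 CPM in rat 1 and 8.08, 15.0 and 11.8 CPM in rat 2, which rest on 65 to 392 UMIs a group.

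**Figure D1:**
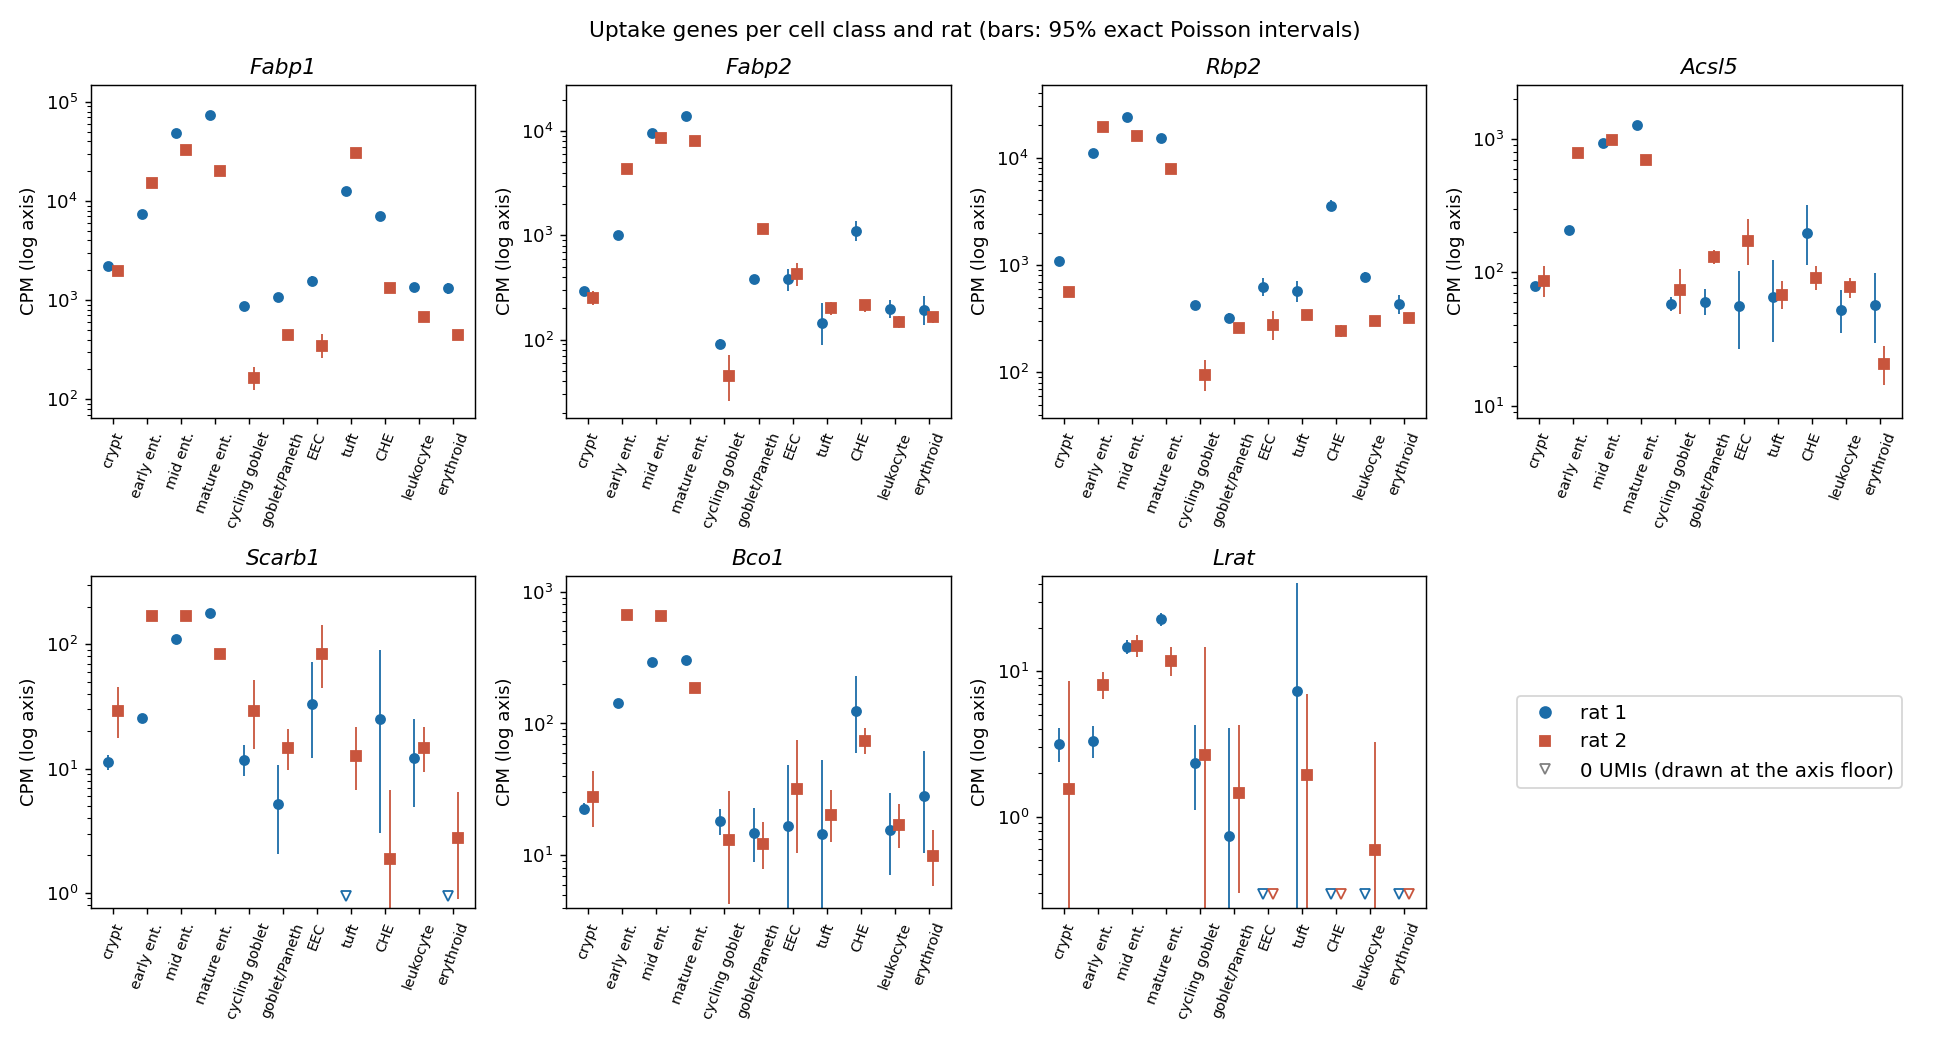
CPM (log axis) of the 7 genes in each cell class, with rat 1 as circles, rat 2 as squares, 95% exact Poisson intervals as bars and open triangles for 0 UMIs. Fabp1 of tuft-like cells, at 12662 and 30397 CPM, stands near the enterocytes, while the other genes of that class stand near leukocyte-like and erythroid cells.

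In crypt-like cells the 7 genes were low, and not all of them stood above the leukocyte-like level. Fabp1 was at 2236 and 1967 CPM in the crypt-like cells of rats 1 and 2, Rbp2 at 1083 and 554 CPM and Fabp2 at 295 and 251 CPM. Acsl5 was at 79.2 and 86.3 CPM, Bco1 at 22.6 and 27.7 CPM, Scarb1 at 11.3 and 29.3 CPM and Lrat at 3.15 and 1.54 CPM. For Fabp1 these levels were 1.64 times (interval 1.53 to 1.76) and 2.88 times (2.66 to 3.12) those of leukocyte-like cells of the same rat. The ratio was 1.49 (1.24 to 1.81) and 1.70 (1.38 to 2.07) for Fabp2 and 1.39 (1.27 to 1.53) and 1.83 (1.60 to 2.10) for Rbp2. Its interval lay above 1 for Acsl5 in rat 1 alone (1.52, 1.06 to 2.26) and for Scarb1 in rat 2 alone (2.00, 1.04 to 3.78), and held 1 for Bco1 and Lrat in both rats. Lrat in the crypt of rat 2 was a single UMI. Most of the crypt signal lay in 1 cluster, led by Bcl2l15, Ccl25 and Khk and by cycling genes, in which Fabp1 reached 7496 and 6182 CPM, Fabp2 1148 and 755 CPM and Rbp2 3706 and 1483 CPM. In the crypt clusters led by Olfm4, Top2a or Pcna, Fabp1 was at 931 to 1077 CPM in the first rat and 201 to 288 CPM in the second, below the 1364 and 684 CPM of leukocyte-like cells.

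From crypt to early enterocytes, 4 of the 7 genes rose by the quasi-likelihood test of edgeR with Benjamini-Hochberg adjustment over all genes, beside 9.82% of the 10204 genes tested that were called in either direction. The called genes were Rbp2 (log2 fold change 4.71 ± 1.16 SE, adjusted p = 0.0248), Bco1 (4.61 ± 0.75, adjusted p = 0.011), Fabp2 (3.87 ± 0.96, adjusted p = 0.0255) and Acsl5 (3.18 ± 0.71, adjusted p = 0.0191). Scarb1 (3.03 ± 0.98, adjusted p = 0.0627), Fabp1 (2.98 ± 1.15, adjusted p = 0.113) and Lrat (1.5 ± 0.66, adjusted p = 0.163) did not pass. All 7 were higher in early enterocytes in both rats. The ratio of CPM was larger in rat 2 for each gene, for example 34.8 against 10.1 for Rbp2, 23.8 against 6.30 for Bco1 and 17.1 against 3.44 for Fabp2, and the early cells of rat 2 had the higher villus scores. The median over the 7 genes was 3.18 on the log2 scale, against -0.06 over all genes tested.

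With the rat as a replicate block, 6 of the 7 passed in this comparison, Fabp1 (adjusted p = 0.015) and Scarb1 (adjusted p = 0.0108) joining, while calls over all genes went from 1002 to 2791. With the Bcl2l15 cluster taken out of the crypt, a choice made after the data were seen, the same 6 genes passed among 1453 calls, with Fabp1 at an adjusted p of 0.0313 and Scarb1 at 0.0468. DESeq2 called 5 of the 7, among them Fabp1, beside 1496 of the 10204 genes tested.

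**Figure D2:**
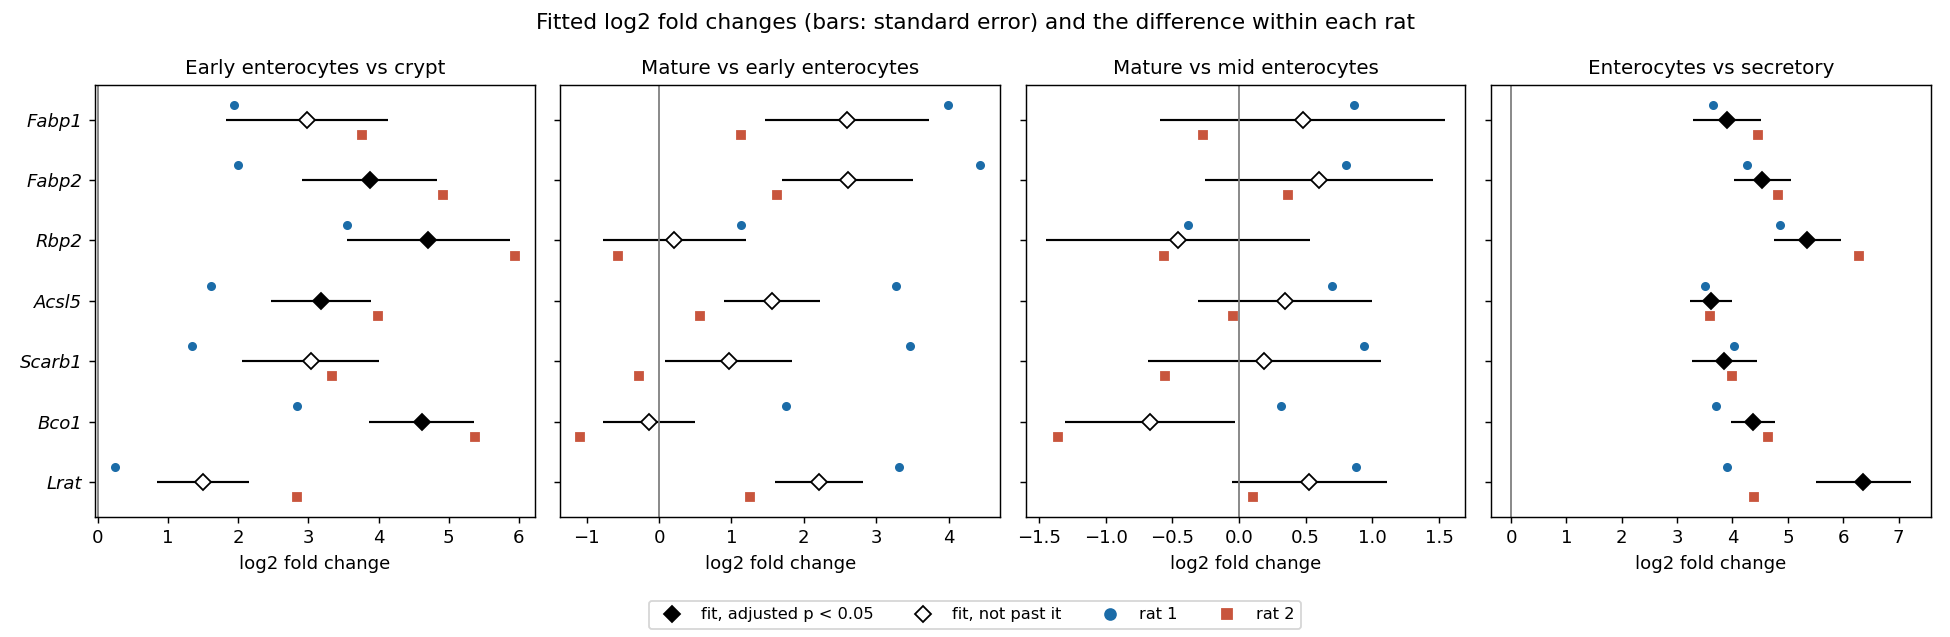
Fitted log2 fold changes of the 7 genes with their standard errors (diamonds, filled where the adjusted p lies under 0.05) and the difference within rat 1 (circles) and rat 2 (squares) in 4 comparisons. Within the enterocytes the circles of rat 1 lie to the right of the squares of rat 2 for mature against early cells, and among enterocytes against secretory classes all diamonds are filled.

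Along the villus the 2 rats differed in course. Over 10 bins of equal cell number, ordered by villus score within each rat, Fabp1 in rat 1 climbed from 3514 CPM in bin 1 to 78658 CPM in bin 8 and stood at 66127 CPM in bin 10. In rat 2 it peaked in bin 5 at 36771 CPM and was at 12086 CPM in bin 10. Fabp2 peaked in the same bins, with 14628 CPM for rat 1 and 9252 CPM for rat 2, yet in rat 2 it kept 7943 CPM in bin 10. The ratio of Fabp1 to Fabp2 UMIs was 3.53 in early, 3.87 in mid and 2.48 in mature cells of rat 2, below the 7.31, 5.12 and 5.36 of rat 1 in each group.

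Rbp2 peaked earlier than the fatty acid binding proteins in both rats. It was highest in bin 5 of rat 1 (26322 CPM) and bin 3 of rat 2 (21813 CPM), and in bin 10 it was at 12822 and 5918 CPM. Bco1 reached 341 CPM (326 to 356) in bin 7 of rat 1, which overlaps the 319 CPM (304 to 334) of bin 8, and stayed at 294 CPM in bin 10. In rat 2 it peaked in bin 4 at 849 CPM and was at 48.4 CPM in bin 10, and no other of the 7 genes was as far below its peak in bin 10 of that rat. Scarb1 and Acsl5 were highest in the last bin of rat 1, at 192 and 1412 CPM, but in bins 3 and 4 of rat 2, at 196 and 1037 CPM. Lrat also peaked in the last bin of rat 1 at 26.6 CPM and in bin 7 of rat 2 at 20.9 CPM, on few UMIs. For Scarb1 and Lrat in both rats, and Acsl5 in rat 2, intervals of other bins overlapped that of the peak. In rat 1 Lrat was at 20.1 CPM (16.5 to 24.1) in bin 7, against an interval of 22.0 to 31.8 CPM in bin 10.

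**Figure D3:**
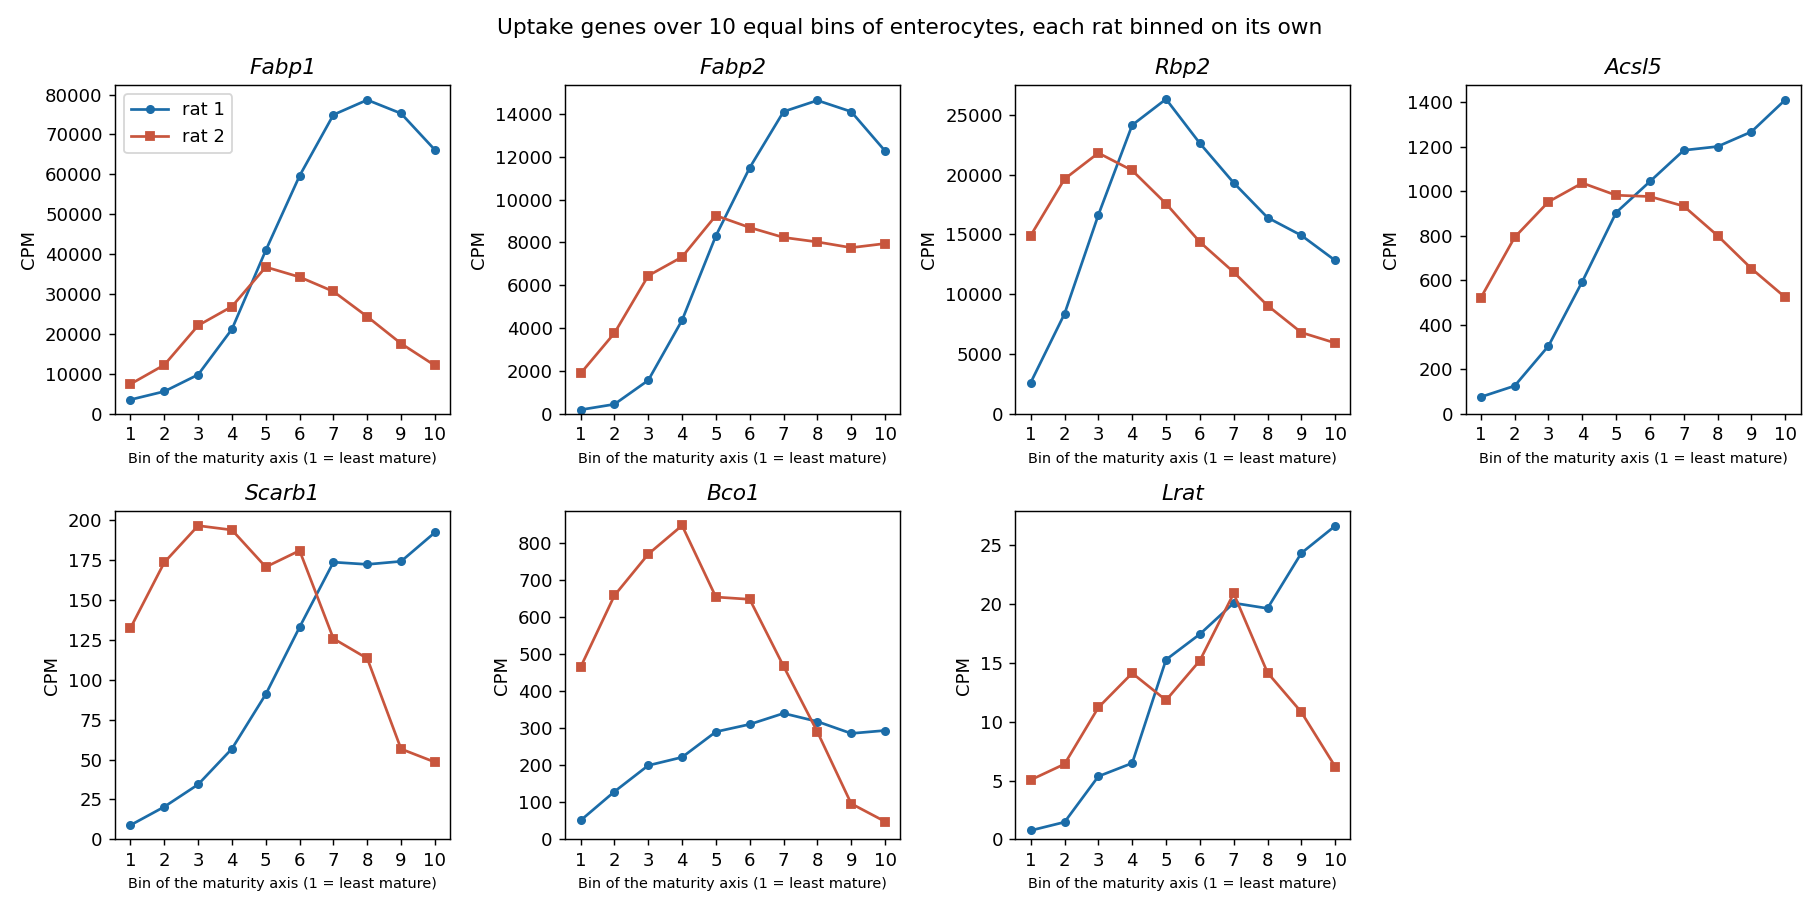
CPM of each gene over 10 bins of enterocyte-like cells from least to most mature, binned within each rat (rat 1 circles, rat 2 squares). The curves of rat 2 peak in an earlier bin for all 7 genes, and most then turn down, as from 849 CPM in bin 4 to 48.4 CPM in bin 10 for Bco1. For Lrat the order of the peaks is not resolved, since in rat 1 the intervals of bins 7 and 10 overlap.

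The test of mature against early enterocytes called 0 of the 7 genes with edgeR, beside 1.67% of all genes tested. An unadjusted p under 0.05 was found for 4 of the 7, beside 2543 of the 10204 genes tested. These 4 were Lrat (log2 fold change 2.20 ± 0.61, adjusted p = 0.0663), Fabp2 (2.61 ± 0.90, adjusted p = 0.1), Fabp1 (2.60 ± 1.13, adjusted p = 0.172) and Acsl5 (1.56 ± 0.67, adjusted p = 0.166). Scarb1 (0.96 ± 0.88, adjusted p = 0.524), Rbp2 (0.21 ± 0.99, adjusted p = 0.926) and Bco1 (-0.15 ± 0.64, adjusted p = 0.92) had standard errors near or above the change itself. DESeq2 called 1 of the 7, Fabp2, beside 1077 of the 10204 genes tested. With the rat as a replicate block 3 of the 7 passed, Lrat (adjusted p = 0.00625), Fabp2 (0.0237) and Acsl5 (0.0323), while calls over all genes went from 170 to 2724.

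Within rats the ratio of mature to early CPM was larger in rat 1 than in rat 2 for all 7 genes, a difference that was not tested. Fabp1 in mature cells was at 9.98 times its early level in rat 1 and 1.31 times in rat 2, Fabp2 at 13.6 and 1.87 times and Lrat at 6.90 and 1.47 times. Scarb1 had ratios of 7.05 and 0.494, Bco1 of 2.12 and 0.283 and Rbp2 of 1.38 and 0.406, so these 3 genes pointed opposite ways in the 2 rats. Acsl5 had ratios of 6.08 and 0.892, and in rat 2 its direction depended on scaling, with a log2 difference of 0.57 after TMM normalization. Mature against mid enterocytes gave 0 calls among all genes (0%) with edgeR and 0 with DESeq2, at 232 and 222 genes with an unadjusted p under 0.05, and 0 of the 7 genes had an unadjusted p under 0.05 by edgeR. With the rat as a replicate block edgeR called 1 gene, none of the 7.

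Because rat 2 began at higher villus scores, cells of both rats were also set side by side in 8 windows of the same score, a description with no test. In window 6 (scores of 301 to 343) the levels of Fabp1 were 78747 CPM for rat 1 and 34937 CPM for rat 2, and Fabp2 at 14674 and 8661 CPM. Both fatty acid binding proteins peaked in that window in both rats. Bco1 went the other way in window 4 (201 to 255), at 300 CPM for rat 1 and 795 CPM for rat 2. In window 8 (398 and above) the order was reversed, at 281 and 143 CPM. Scarb1 in window 2 was at 32.7 CPM for rat 1 and 151 CPM for rat 2, and in window 8 at 192 and 70.0 CPM. In the windows named, levels still differed between the rats at the same scores, although the peaks of Fabp1 and Fabp2 no longer did. Equal scores need not mean equal maturity, because the score is a sum of villus genes whose own levels may differ between the rats. Ada, a villus tip gene in the mouse, was at 348 CPM in mature enterocytes of rat 1 and 5194 CPM in rat 2. How far such differences shift the score was not tested. Median Mt- shares in window 8 were 21.3% and 30.1%, whose part in the result was not tested.

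**Figure D4:**
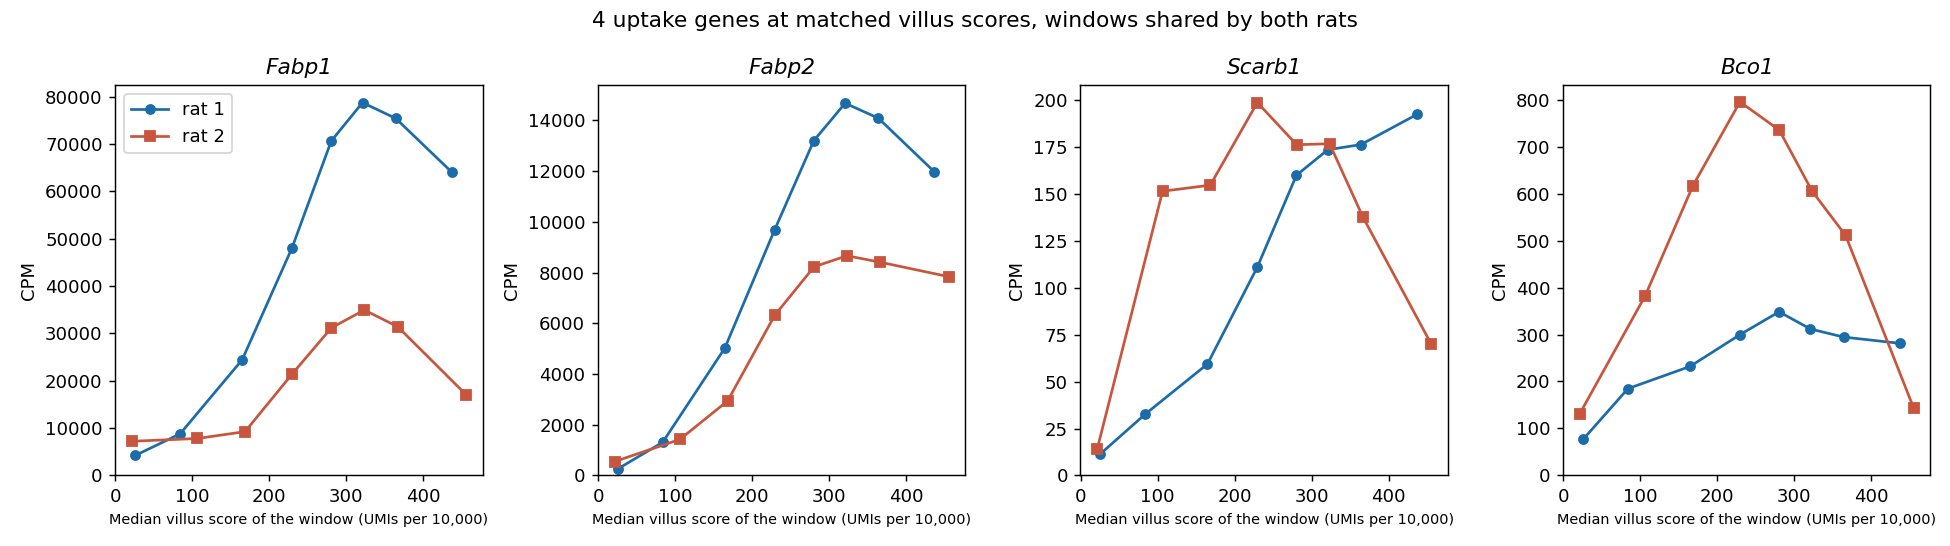
CPM of 4 genes against the median villus score of 8 score windows shared by both rats (rat 1 circles, rat 2 squares). Fabp1 and Fabp2 peak at the same score in both rats, at about 78747 and 34937 CPM for Fabp1, while Bco1 is higher in rat 2 up to window 7 and lower in the last.

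A cluster of enterocytes held little Bco1 in both rats. It was led by Ada, Slc28a2 and Apoa4, which are villus tip genes in the mouse, and held 381 cells of rat 1 and 352 of rat 2. Bco1 stood there at 88.4 and 39.5 CPM, against 361 and 570 CPM in the cluster led by Pck1 and Cubn. Rbp2 was at 9206 and 5494 CPM against 16858 and 14614 CPM. Fabp2 differed less, at 13778 and 7252 CPM against 14687 and 9000 CPM. For Fabp1 this cluster of rat 1 was at 58592 CPM and the other at 82599 CPM, and those of rat 2 at 12621 and 36142 CPM, so that Fabp1 was lower there along with Rbp2.

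Against the mean of the 4 secretory classes (goblet/Paneth, EEC, tuft and CHE), all 7 genes rose in enterocytes with edgeR, beside 32% of all genes called in either direction. Log2 fold changes were 5.35 ± 0.61 for Rbp2 (adjusted p = 1.61e-05), 4.54 ± 0.51 for Fabp2 (1.40e-05), 4.36 ± 0.40 for Bco1 (3.53e-06) and 3.90 ± 0.62 for Fabp1 (0.000223). They were 3.85 ± 0.58 for Scarb1 (0.000151) and 3.61 ± 0.38 for Acsl5 (9.66e-06). Lrat had a fitted value of 6.37 ± 0.85, which rests on classes at 0 UMIs and was 3.52 with DESeq2. Each gene was higher in enterocytes in both rats and under each alternative run. Over all genes edgeR called 2233 higher and 1032 lower, while DESeq2 with its own size factors called 1736 higher and 2520 lower, and the median over all genes moved from 0.18 to -0.28, a shift that is small beside the changes of the 7 genes.

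The secretory classes differed among themselves for 2 of the 7 genes, Fabp1 (edgeR, adjusted p = 0.0354) and Bco1 (adjusted p = 0.0338), beside 13.2% of all genes. With the rat as a replicate block the adjusted p was 0.00192 for Fabp1 and 0.018 for Bco1, while calls over all genes went from 1345 to 2484. Fabp1 was at 12662 and 30397 CPM in tuft-like cells of rats 1 and 2, chemosensory cells of the epithelium. In the same classes it was at 1071 and 441 CPM in goblet/Paneth, 1556 and 346 CPM in EEC and 7090 and 1330 CPM in CHE cells. Summed over cells, tuft-like cells held more Fabp1 than early enterocytes of the same rat (7435 and 15176 CPM). At 5000 UMIs a cell the median tuft-like cell of rat 2 had 134 Fabp1 UMIs against 55 in early enterocytes, but in rat 1 the order was opposite, at 10 against 22 UMIs. Tuft-like cells of rat 1 held more stem markers (897 against 92.1 CPM in rat 2) and cycling markers (1064 against 199 CPM). Their tuft markers were lower, at 2318 against 6500 CPM. With the rats merged without integration the class had 7 cells of rat 1. The part of this mixture in the order was not tested. With tuft-like cells left out, a choice made after the data were seen, Fabp1 had an adjusted p of 0.265, and with at most 20% Mt- UMIs 0.052.

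In tuft-like cells Fabp1 alone of the 7 genes stood clear of the leukocyte-like level in both rats. It stood 9.28 times (8.53 to 10.1) above leukocyte-like cells in rat 1 and 44.5 times (41.9 to 47.2) in rat 2, while Fabp2 stood at 0.737 and 1.35 times and Rbp2 at 0.731 and 1.14 times. The ratio of Fabp1 to Fabp2 UMIs was 86.9 and 152 in tuft-like cells, against 6.89 and 4.62 in leukocyte-like cells and 5.36 and 2.48 in mature enterocytes. The 8 enterocyte markers summed to 401 and 332 CPM in tuft-like cells, near the 347 and 247 CPM of leukocyte-like cells, and 7 of the 8 in rat 1 and 8 in rat 2 had a UMI. The signal was spread over cells in rat 2, where 113 of 128 tuft-like cells were over 5000 CPM and the median cell was at 26876 CPM. In rat 1 all 15 cells had a UMI, from 503 to 79381 CPM with a median of 2171 CPM, 7 of the 15 were over 5000 CPM, and the cell with most Fabp1 held 25.5% of the UMIs.

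**Figure D5:**
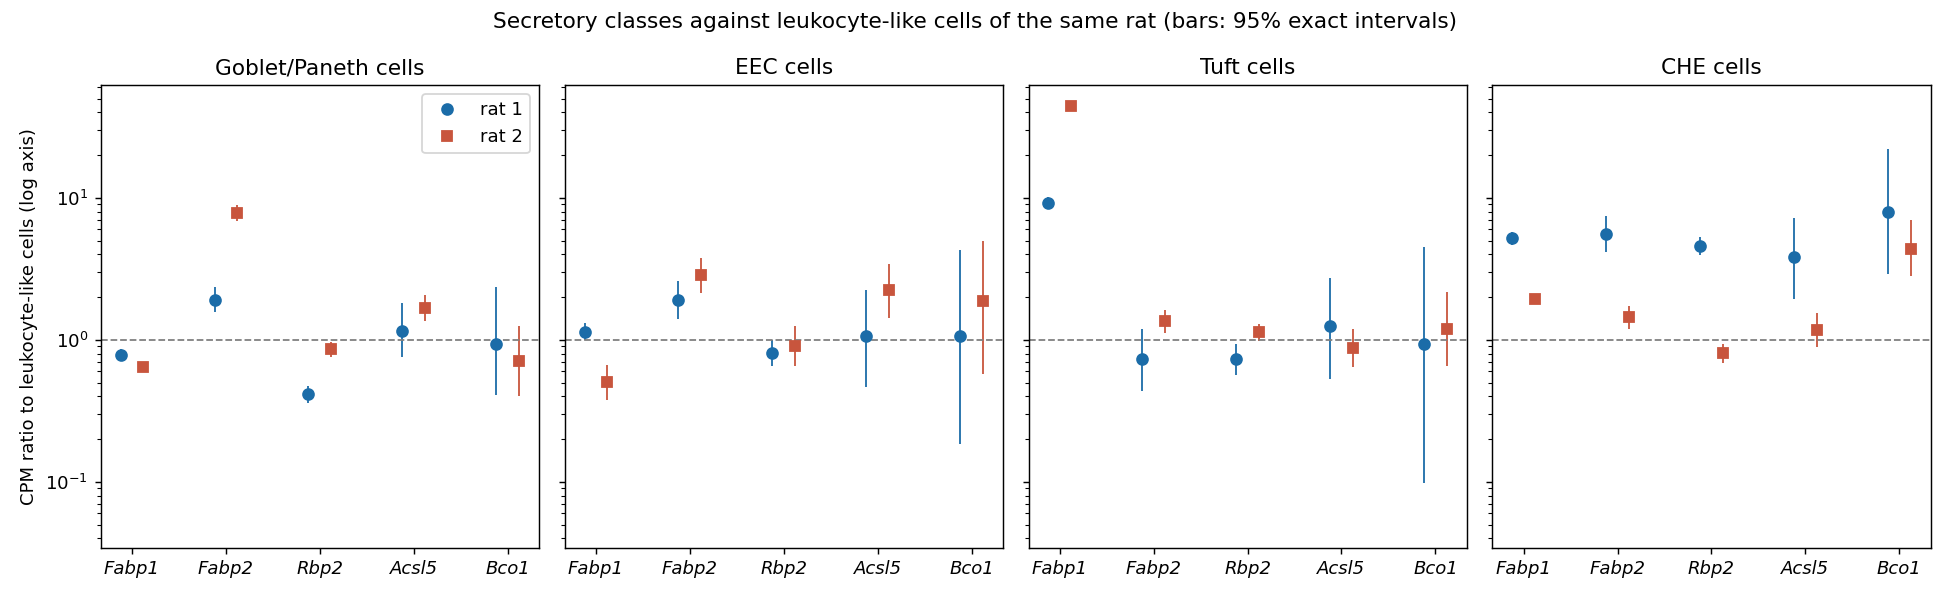
Ratio of CPM in 4 secretory classes to leukocyte-like cells of the same rat (log axis, dashed line at equal levels), with 95% exact intervals, rat 1 as circles and rat 2 as squares. Tuft-like cells stand out for Fabp1 (9.28 and 44.5) and CHE cells of both rats for Bco1 (7.95 and 4.37). Goblet/Paneth-like cells (1.92 and 7.78) stand out for Fabp2 in rat 2 alone. In rat 1 Fabp2 was at 380 CPM there, against 378 CPM in EEC and 1105 CPM in CHE cells.

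In goblet/Paneth-like cells, which make mucus and antimicrobial proteins, Fabp2 stood at 380 and 1151 CPM, 1.92 times (1.56 to 2.37) and 7.78 times (6.83 to 8.89) the leukocyte-like level. Fabp1 stood below that level, at 0.785 and 0.645 times, so that in rat 2 Fabp2 outnumbered Fabp1, with a ratio of Fabp1 to Fabp2 UMIs of 0.383. Most of this Fabp2 came from the goblet cluster led by Zg16 and Fcgbp (48 and 110 cells), at 768 and 1538 CPM. In the goblet cluster led by Spink4 and Clca1 (112 and 30 cells) it was at 226 and 165 CPM. A UMI of Fabp2 was found in 133 of 160 and 133 of 140 cells before thinning, and no cell held over 6.77% of the UMIs. The enterocyte markers summed to 2668 and 4735 CPM in this class, above the 347 and 247 CPM of leukocyte-like cells, and their part in the result was not tested. Fabp2 did not pass the test among secretory classes (adjusted p = 0.177 with edgeR). EEC cells, which release hormones, had Fabp2 at 378 and 423 CPM, 1.91 times (1.39 to 2.60) and 2.86 times (2.15 to 3.76) the leukocyte-like level. In rat 1 at 5000 UMIs a cell, 15 of 21 EEC cells had a Fabp2 UMI (19 before thinning). The median there was 1 UMI and the highest cell had 25. The enterocyte markers summed to 2328 and 1963 CPM in EEC cells, and their part in the result was not tested.

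Bco1 was highest among secretory classes in CHE cells, a class rich in the chloride channel CFTR. It stood at 124 CPM on 10 UMIs in rat 1 and at 74.1 CPM on 79 UMIs in rat 2, against 12.1 to 32.1 CPM over the other secretory classes of both rats. This was 7.95 times (2.90 to 22.1) and 4.37 times (2.82 to 6.94) the leukocyte-like level. In rat 2 the UMIs lay in 43 of 79 cells and the top cell held 6.33% of them. In rat 1 they lay in 4 of 8 cells, and 1 cell held 50% of them, without which the level was 74.0 CPM. That cell also had the highest villus score of the 8, at 273 per 10000, and the most Fabp1. After thinning each cell to 5000 UMIs, 37.5% and 21.5% of CHE cells had a Bco1 UMI, against 7.69% and 7.54% of leukocyte-like cells (before thinning 50.0% and 54.4%, against 13.5% and 10.3%). With CHE cells left out, a choice made after the data were seen, Bco1 had an adjusted p of 0.903 among the remaining secretory classes. With the rats merged without integration it was 0.104, and with tuft-like cells left out 0.0649.

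Fabp1 and Fabp2 of CHE cells rested largely on 1 cell in each rat. Fabp1 was at 7090 and 1330 CPM, but 1 cell in each rat held 61.5% and 55.8% of its UMIs, and without that cell the levels were 3258 and 605 CPM. Fabp2 went from 1105 and 213 CPM to 429 and 98.1 CPM without its top cell. Rbp2 went from 3576 to 1868 CPM in rat 1, but only from 243 to 194 CPM in rat 2, where the top cell held 21.2% of the UMIs. In rat 1, where the class had 8 cells, Acsl5 was at 199 CPM, 3.82 times (1.94 to 7.22) the leukocyte-like level, and in rat 2 at 91.0 CPM, 1.18 times (0.897 to 1.54), with a UMI in 55 of 79 cells. The 8 enterocyte markers summed to 7947 and 9243 CPM in CHE cells, near the 8649 and 8978 CPM of mid enterocytes, and their part in these levels was not tested. Averaged gene by gene on a log scale, with both rats pooled, these markers were at 0.712 in the CHE cluster. The enterocyte clusters ran from 0.621 to 2.27, so the sum does not give the level of each gene. The study reported that its CHE cluster lacked enterocyte-associated genes.

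Scarb1 and Lrat rested on few UMIs in secretory cells. Scarb1 gave 7 and 30 UMIs in goblet/Paneth-like, 0 and 13 in tuft-like and 2 and 2 in CHE cells. In EEC cells it stood at 33.3 and 83.4 CPM on 6 and 13 UMIs, and 4 cells in each rat held all of them. The EEC level of rat 2 was 0.995 times (0.526 to 1.72) that of its mature enterocytes, and the one of rat 1 was 0.187 times (0.0686 to 0.407). At 5000 UMIs a cell, 27.3% of 11 EEC cells and 25.8% of mature enterocytes of rat 2 had a Scarb1 UMI (before thinning 36.4% and 53.5%). Lrat gave 1 and 3 UMIs in goblet/Paneth-like cells, 1 and 2 in tuft-like cells and 0 in EEC and CHE cells of both rats. At 5000 UMIs a cell, Lrat was seen in 10.6% and 4.70% of mature enterocytes (before thinning 23.3% and 14.9%), and in 0% and 0.397% of leukocyte-like cells, so single cells say little of it.

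Within the enterocyte groups the genes moved together to different degrees from cell to cell, given here as descriptions over cells of 1 library. Pearson's r of log2 levels at 5000 UMIs a cell between Fabp1 and Fabp2 was 0.61, 0.86 and 0.76 in early, mid and mature cells of rat 1 and 0.72, 0.74 and 0.49 in rat 2. For Fabp1 and Rbp2 it was 0.63, 0.12 and 0.38 in rat 1 and 0.58, 0.73 and 0.70 in rat 2, so the pair was loosest in the mid cells of rat 1.

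Over the 18 sums of the 9 epithelial classes and 2 rats, the genes most like each member were ranked by Pearson's r of log2 CPM, as a description over sums that share rats and depth. Among the closest to Fabp1 were Pold4 (0.96) and Lima1 (0.93), and closest to Fabp2 were the apolipoprotein Apoa1 (0.97), the microvillus protein gene Pls1 (0.97) and Pla2g12b (0.96). Rbp2 was closest to Dnase1 (0.98), Slc13a2 (0.98) and Cyp4f1 (0.97), and Bco1 to Aktip (0.97), Ckmt1 (0.97) and Fth1 (0.97). Acsl5 was closest to Sar1b (0.97), which encodes a GTPase needed for chylomicron transport, Apoa1 (0.97) and Dnpep (0.97). For Scarb1 the nearest were Atp13a2 (0.95), Lpgat1 (0.94) and Acbd4 (0.93), and for Lrat Cpt1b (0.93), Gpr155 (0.93) and Fmo5 (0.91).

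Other genes of the same pathways were read from 5 lists. Of 13 genes of triglyceride synthesis and chylomicron assembly, 8 rose from crypt to early enterocytes with edgeR, among them Mogat2 (log2 fold change 4.51), Gpat3 (3.83), Apoc3 (3.51) and Dgat2 (3.29), and none fell, beside the 9.82% of all genes called in either direction. The list median was 3.03, against -0.06 over all genes. Of 10 genes of fatty acid transport and activation 2 rose, Slc27a4 (2.85) and Scp2 (1.85). Of 13 genes of fatty acid oxidation 4 rose, among them the peroxisomal Ehhadh (2.39) and the mitochondrial Acadm (2.30) and Acadvl (1.67). Of 19 retinoid and carotenoid genes 9 could be tested and 1 rose, Bco2 (3.07), which cleaves carotenoids off-centre. Of 10 regulators 8 could be tested and 1 rose, Creb3l3 (4.02). The counts of 1 in the retinoid and regulator lists are near the share of all genes called. From early to mature enterocytes Acsl3 (3.96) and Apob (3.67) rose and no other gene of these lists passed, beside 1.67% of all genes.

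Against secretory classes, where 32% of all genes were called in either direction, all 13 genes of triglyceride synthesis and chylomicron assembly rose in enterocytes, with a list median of 4.08 against 0.18 over all genes, led by Apoc3 (5.08), Mogat2 (4.70), Apoa4 (4.70) and Dgat1 (4.55). The oxidation list had 10 of 13 higher, led by Ehhadh (4.21) and Acadvl (3.17). Fatty acid transport had 5 of 10 higher, among them Slc27a4 (3.97), and 2 lower, Fabp5 (-4.28) and Acsl4 (-2.44). Of the retinoid genes 4 of 9 tested were higher, Bco2 (5.45), Retsat (2.98), Dhrs3 (2.74) and Aldh1a1 (2.71), a share not far above that of all genes. Of the regulators 6 of 8 tested were higher, among them Creb3l3 (5.44), Hnf4g (4.06) and Nr1h3 (2.84). The fitted values of Bco2 and of the regulator Ppara (4.42) rest on classes at 0 UMIs, EEC cells for both genes and CHE cells for Ppara, and within rats 1 and 2 Ppara differed by 1.76 and 2.96 on the log2 scale.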

How the data were processed

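Epithelium of 2 rats was measured by droplet-based 3' sequencing of single cells, 1 library a rat. The authors deposited raw UMI counts per gene and barcode, made with Cell Ranger against rn6 (Rnor6), with version 3.1.0 (rat 1) and 5.0.1 (rat 2) per the file headers. Rat and version cannot be told apart. Barcodes numbered 20285, of which 8218 had 200 to 5800 genes, over 5000 UMIs and at most 40% Mt- UMIs, the study's limits. Antisense and near-identical genes may share UMIs.

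The rats were integrated, and cells were clustered on 2000 variable genes and 20 components, in 2 rounds at resolutions of 0.3 and 0.5, with Seurat 5.3.0 (R 4.3.3). Marker lists gave the names, with required levels chosen once the clusters had been seen. A mixed cluster of 200 and 87 cells stayed unnamed. Epithelial cells with at most 10 UMIs of Epcam, Krt8, Krt18, Krt19 and Krt20 together were left out. Scrublet called 116 doublets in rat 1 (1.94%) and 2 in rat 2 (0.0897%), where it may not have worked, and they were kept. Cells thinned to 5000 UMIs gave shares of cells.

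UMIs were summed per rat and class. The 18 sums were tested in 1 model with edgeR 4.0.16 (TMM, its filter on low counts, quasi-likelihood test, Benjamini-Hochberg over 10204 genes, threshold 0.05), as contrasts of class means. Standard errors were taken from the fold change and the F statistic. Differences within a rat used log2 CPM (prior count 2). Intervals were exact, Poisson for levels, conditional for ratios. Each animal gave every class, which pairs the sums by rat. Over 36 pairs of classes the rats' deviations correlated at 0.0764 to 0.761 (median 0.248). The study names no block, so the block is an alternative. Tested on simulated data (mature against early enterocytes, 8662 genes, of which 200 were changed by a log2 value of 2), the fit recovered 164 and made 9 false calls. Among secretory classes (8694 genes) it recovered 89 of 200 and made 3. The simulated counts came from 1 mean profile shared by all classes, with a fixed spread and no effect of the rat. They therefore do not measure how many such changes are recovered in the real data.

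The 8 genes and the pathway lists were chosen with earlier results of these data known. Named beside them are the 3 genes most like each, the called genes of each list, at most 4 per list and direction, and genes said to be picked later. Some genes that this rule would name are not reported here. Alternatives were DESeq2 1.42.0, no filter, the rat as a block, Mt- genes left out, a 20% Mt- limit, doublets removed, cells with few epithelial UMIs kept, a resolution of 1, no integration, maturity by ribosomal share, pooled score limits and each rat alone. Leaving out 1 crypt cluster, tuft-like or CHE cells was added after seeing the data.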

Additional observations from a re-analysis of the deposited data

Results flagged for a closer look

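Barcodes with over 5000 UMIs and over 40% Mt- UMIs entered no comparison, yet held the uptake genes above the limit that a count of 0 allows. In the 182 such barcodes of rat 1, Fabp1 stood at 8034 CPM, Fabp2 at 1688 CPM, Rbp2 at 5194 CPM and Bco1 at 92.9 CPM. In the 1510 such barcodes of rat 2, Fabp1 stood at 4354 CPM, Fabp2 at 1239 CPM, Rbp2 at 3472 CPM and Bco1 at 214 CPM. With Mt- UMIs taken out of the total, the level of Fabp1 in these barcodes was 16537 CPM for rat 1 and 12178 CPM for rat 2, and Bco1 at 191 and 597 CPM. By these values, which were not tested, Fabp1 was lower and Bco1 higher in rat 2. Of the retained enterocyte groups only the mid group had this order for both genes. In early cells Fabp1 was higher in rat 2 (15176 against 7435 CPM), and in mature cells Bco1 was lower (187 against 302 CPM).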

How the results depend on the processing

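From crypt to early enterocytes 1002 genes were called, against 1817 with no filter on low counts and 2791 with the rat as a replicate block. Mature against early enterocytes gave 170 calls, the count that moved most: 18 with cells of few epithelial UMIs kept, 445 by ribosomal share, 619 with the rats merged without integration, 838 with at most 20% Mt- UMIs, 1077 with DESeq2, 1450 with pooled score limits, 1609 with no filter and 2724 with the replicate block. Mature against mid gave 0 calls, 7 with no filter and 1 with the block. Among secretory classes 1345 genes were called, 2409 with no filter, 2484 with the block and 848 without tuft-like cells. The causes were not tested. The log2 fold change of Rbp2 from early to mature enterocytes was 0.21 and turned to -0.049 with the block, and that of Bco1 was -0.15 and turned to 0.058 with the block and 0.58 with pooled score limits. None of these reached the threshold. Beyond the calls given above, the block changed no call of the 7 genes. Of the other fold changes of the 7 genes, 289 kept direction and side of the threshold and 23 kept direction and passed it. With 1 rat left out no test can be made. Of 56 single-rat differences 50 lay within 1 SD of the fit. That SD comes from the same 2 differences, so the count cannot show that the rats agree. The 2 rats, 36 crypt-like cells of rat 2 and 8 CHE cells of rat 1 limit the comparisons that use them.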

Other observations

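Relatives of the uptake genes marked secretory classes where the 7 genes were low. Fabp5, the epidermal fatty acid binding protein, stood at 3384 and 3624 CPM in EEC cells of rats 1 and 2 and at 0.930 and 0.607 CPM in mature enterocytes (edgeR among secretory classes, adjusted p = 0.000415). Fabp4, the adipocyte form, stood at 956 and 1792 CPM in CHE cells and 0 CPM in tuft-like cells of both rats (adjusted p = 0.00618), although 564 CPM were also seen in EEC cells of rat 2. Fabp4 was among the leading genes of the CHE cluster and was not used to cluster cells.

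Some retinoid genes and Mogat2 also differed among secretory classes, though not all were higher there than in enterocytes. Rbp4, the serum retinol carrier, was at 828 and 532 CPM in EEC cells (adjusted p = 6.96e-05), against 1.05 and 2.43 CPM in mature enterocytes. Rdh10, which oxidizes retinol to retinal, was at 94.8 and 142 CPM in tuft-like cells (adjusted p = 0.000841). Rara, a retinoic acid receptor, was at 49.7 CPM on 4 UMIs and at 124 CPM in CHE cells (adjusted p = 0.00182). Dhrs9 was at 30.1 and 479 CPM in goblet/Paneth-like cells and rested on rat 2 (adjusted p = 0.0473). Mogat2, a monoacylglycerol acyltransferase, was at 74.5 CPM on 6 UMIs and 36.6 CPM in CHE cells against at most 11.1 CPM in the other secretory classes (adjusted p = 0.0079). On the log2 CPM scale (prior count 2), mature enterocytes were at 5.14 and 8.88 for Dhrs9, against 4.94 and 9.15 in goblet/Paneth-like cells. For Rara they were at 6.12 and 5.92, against 5.49 and 7.12 in CHE cells. For Mogat2 they were at 7.98 and 7.35, against 6.07 and 5.37 in CHE cells. Rdh10 was lower in mature enterocytes, at 3.91 and 4.04, than in tuft-like cells, at 5.90 and 6.77.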
